A study of Mus musculus with 12 samples.

Results

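Metallothioneins are small cysteine-rich proteins that hold zinc and copper in the cell, and they were examined here together with the genes that sense and move zinc in mouse colonoids given hemin. The 7 genes were *Mt1*, *Mt2*, *Mt3* and *Mt4*, the 4 metallothionein genes of the mouse, *Mtf1*, the zinc-sensing transcription factor of this family, *Slc30a1*, a zinc exporter of the plasma membrane, and *Slc39a4*, a zinc importer of the gut epithelium. They were taken by symbol from a table of 54532 genes, and they had been chosen from their FPKM in the 4 groups of these same libraries, with the pattern of *Mt3* already known. Their values are therefore a description and carry no test. All 7 passed the filter on low values (3 or more of the 12 libraries reaching an FPKM of 1), as did 12740 genes in all, although *Mt3* passed that filter through hemin-treated colonoids labelled KO and a library of hemin-treated controls, and *Mt2* through only 4 libraries.

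Colonoids were grown from colon epithelium of 8- to 12-week-old C57BL/6 mice with floxed *Hmox1* alleles. Controls were *Hmox1* fl/fl without Cre, and the other genotype, named Hmox1ΔIEC or KO, carried the same floxed alleles together with the Vil1-Cre transgene, which acts in villus and crypt epithelium. Each genotype received vehicle or 200 μM hemin, which is heme with ferric iron and chloride, over 24 hours, and 3 libraries of poly-A RNA were made per group. All colonoids were kept in L-WRN-conditioned medium with serum, and no source ties the libraries of a group to separate animals, so SDs and p-values measure the spread between libraries. *Hmox1* itself (chromosome 8, 75093621 to 75100589) was read first in every library, and it encodes the heme-degrading enzyme HO-1. Its FPKM under vehicle was 7.62, 6.85 and 7.90 in controls and 3.14, 2.11 and 2.31 in colonoids labelled KO. Under hemin it was 503, 483 and 382 in controls and 1279, 1393 and 1271 in colonoids labelled KO. Colonoids labelled KO thus lay below controls under vehicle, in the direction of the label, but above them under hemin, against that direction. A sum over the whole gene cannot show whether the floxed part was lost, and the genotype is therefore written as labelled KO throughout. In addition, the label of replicate 3 of hemin-treated colonoids labelled KO gives floxed alleles with Vil1-Cre where the others give KO with Vil1-Cre.

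Zinc in excess is bound by MTF1, which then occupies metal response elements in the promoters of metallothionein genes and of *Slc30a1*. Metallothioneins buffer the metal and can also release it when their cysteines are oxidized. *Mt1* and *Mt2* are the broadly expressed members of the family, whereas *Mt3* is best known from brain and *Mt4* from stratified squamous epithelium. In the intestine, SLC39A4 takes up zinc at the apical side and SLC30A1 passes it on at the basolateral side.

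The 4 metallothionein genes lie side by side on the plus strand of chromosome 8 (mm10), in the order *Mt4* (94137197 to 94139031), *Mt3* (94152607 to 94154146), *Mt2* (94172664 to 94173568) and *Mt1* (94179082 to 94180327), over 43.1 kb. *Hmox1* lies on the same chromosome, 19.0 Mb before the cluster. Promoters of 6 of the 7 genes were found in the RefSeq table of the GRCm38.p6 build, each running from 250 bases before to 50 bases after the start, and that of *Slc39a4* was not among them. The sequences of the 4 cluster genes are shown because the genes have the same neighbourhood and differ widely in level. They run 5′ to 3′ on the plus strand from 250 bases before the RefSeq start to 30 bases after it, and capitals mark the core of the metal response element, TGCACNC or TGCGCNC, on either strand.
Mt1, chr8:94178839-94179118: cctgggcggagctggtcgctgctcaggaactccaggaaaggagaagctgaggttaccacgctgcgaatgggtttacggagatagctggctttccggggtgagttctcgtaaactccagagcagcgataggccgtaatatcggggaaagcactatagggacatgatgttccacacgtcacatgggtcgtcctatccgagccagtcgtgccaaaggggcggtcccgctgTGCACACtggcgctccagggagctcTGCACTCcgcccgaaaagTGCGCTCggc
Mt2, chr8:94172368-94172647: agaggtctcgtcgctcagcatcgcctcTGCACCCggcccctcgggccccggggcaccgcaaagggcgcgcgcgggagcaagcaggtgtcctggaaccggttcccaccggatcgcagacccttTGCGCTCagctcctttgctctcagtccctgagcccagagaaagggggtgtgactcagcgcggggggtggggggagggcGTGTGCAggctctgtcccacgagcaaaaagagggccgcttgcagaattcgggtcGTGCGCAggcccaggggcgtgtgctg
Mt3, chr8:94152357-94152636: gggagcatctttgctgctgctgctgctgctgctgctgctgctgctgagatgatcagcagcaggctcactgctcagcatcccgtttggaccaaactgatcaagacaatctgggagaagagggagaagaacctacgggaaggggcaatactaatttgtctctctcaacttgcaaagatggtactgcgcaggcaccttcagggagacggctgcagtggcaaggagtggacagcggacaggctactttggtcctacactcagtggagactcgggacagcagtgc
Mt4, chr8:94136954-94137233: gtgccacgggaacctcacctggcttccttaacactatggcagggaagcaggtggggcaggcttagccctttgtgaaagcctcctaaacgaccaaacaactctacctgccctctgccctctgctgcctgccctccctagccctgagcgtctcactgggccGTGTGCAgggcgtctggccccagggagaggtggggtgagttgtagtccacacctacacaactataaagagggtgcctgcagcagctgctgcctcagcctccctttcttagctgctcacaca

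The whole 300-base window of *Mt1* held 3 cores, all on the plus strand, beginning 23 bases before the start and at bases 3 and 21 after it. The window of *Mt2* held 4, of which 2 read on the minus strand. *Mt4* had 1, on the minus strand and 91 bases before the start, and *Mt3* had 1, which begins at base 28 after the start and so runs out of the stretch printed above. *Slc30a1* held 2 and *Mtf1* had no match. Among 32851 promoters of the same length, 25.7% held at least 1 such core, 1.97% at least 3 and 0.517% at least 4. The core of the antioxidant response element, TGACNNNGC on either strand, was present in 12.4% of promoters and matched once each in the windows of *Mt2* and *Slc30a1*. Windows without this core, that of *Mt1* among them, can still have it outside their ends. A match is a run of letters, not an occupied site, and these windows leave out everything farther upstream. They also leave out everything beyond 50 bases after the RefSeq start. The annotation holds 3 transcripts of *Mt1*, and elements near the start of another transcript can lie outside its window.

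By the deposited FPKM, and with the limit on *Mt2* counts described below, *Mt1* (ENSMUSG00000031765) was by far the most abundant metallothionein in every library. Its FPKM was 140, 131 and 133 in vehicle-treated controls and 87.0, 86.8 and 109 in hemin-treated controls. In colonoids labelled KO it was 208, 198 and 207 with vehicle and 302, 221 and 255 with hemin. The 4 groups did not overlap, and their order from high to low was labelled KO with hemin, labelled KO with vehicle, control with vehicle and control with hemin. The group means were 259 ± 40.5 (SD, n = 3), 205 ± 5.67, 135 ± 4.76 and 94.3 ± 12.8 in that order. The ratio of means with hemin over vehicle was 0.698 in controls but 1.27 in colonoids labelled KO, so that hemin-treated controls lay below their vehicle group and hemin-treated colonoids labelled KO above theirs. Between the genotypes the ratio was 1.51 under vehicle and 2.75 under hemin. The *Mt1* values of the hemin-treated colonoids labelled KO were spread more widely than those of the other groups, and the lowest of them, replicate 2, was still above every library of the other groups.

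The difference of *Mt1* from vehicle in colonoids labelled KO was the least secure of these differences. Its fitted log2 fold change, taken on the scale of log2(FPKM + 1) as all fitted values here, was 0.33 (standard error 0.11) and became −0.01 when the libraries were rescaled to TPM, a scaling that moved the median of all genes in that comparison from 0.00 to −0.31. Relative to that median *Mt1* remained positive. Under hemin, the fitted difference between the genotypes was 1.45 and stayed between 1.33 and 1.55 over 21 alternative settings. The length behind these FPKM, 1246 bases, covers the full span of the gene with its introns, because the annotation also holds longer transcripts, whereas the main transcript of 3 exons has 549 bases. Per base of that transcript the level would be 2.27 times as high, which affects comparisons with other genes and not those between groups.

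*Mt3* was nearly absent outside hemin-treated colonoids labelled KO. There its FPKM was 39.2, 41.7 and 38.8, from 601, 1047 and 593 fragments. Vehicle-treated controls held 3, 2 and 1 fragments and vehicle-treated colonoids labelled KO held 4, 3 and 9. Hemin-treated controls held 8, 8 and 13, at an FPKM of 0.658, 0.635 and 1.04. The libraries labelled KO with hemin therefore stood far apart from the other 9, and hemin-treated controls lay above both vehicle groups, which overlapped each other. After allowing for library size, hemin-treated colonoids labelled KO held 135 times as many *Mt3* fragments as their vehicle group, with an exact 95% counting interval of 83.1 to 237. In controls the same ratio was 6.55, with an interval of 2.67 to 19.3. Between genotypes under hemin it was 51.6, with an interval of 35.8 to 77.2. These intervals cover counting error only, since the libraries carry no molecular identifiers. On the fitted scale, the interaction of genotype and hemin was 4.32 for *Mt3* and stayed between 4.25 and 4.72 over 20 alternative settings.

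*Mt4* was higher in colonoids labelled KO already under vehicle. Its FPKM was 0.152, 0.294 and 0 in vehicle-treated controls, from 1, 2 and 0 fragments, and 5.07, 5.52 and 4.18 in vehicle-treated colonoids labelled KO, from 33, 38 and 28. Hemin-treated controls held 4, 7 and 5 fragments, at 0.881, 1.49 and 1.08 FPKM. With hemin, colonoids labelled KO reached 62.6, 43.8 and 58.3 FPKM, from 359, 410 and 333 fragments. The 4 groups did not overlap, and the order was labelled KO with hemin, labelled KO with vehicle, control with hemin and control with vehicle. This order differs from that of *Mt1* in its last places, where the control groups change over. The fragment ratio of hemin over vehicle was 10.7 in colonoids labelled KO, with a counting interval of 8.74 to 13.3, and 7.23 in controls, with an interval of 2.07 to 38.7. The latter ratio rests on the 3 *Mt4* fragments that vehicle-treated controls held in all. The fitted interaction was 2.33, and it came down to 0.94 with a pseudocount of 0.1 and to 0.81 with limma-voom on recovered fragments.

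*Mt2* contributed almost nothing at the level of the deposited table. Its FPKM was 0.206, 0.995 and 0.619 in vehicle-treated controls, 0, 0.575 and 0 in hemin-treated controls, 1.35, 1.57 and 0.909 in vehicle-treated colonoids labelled KO and 1.18, 0 and 1.42 in hemin-treated colonoids labelled KO. At most 16 fragments were counted in any library, and neighbouring groups in the order of means overlapped. These values have a limit of their own in the annotation. *Gm45774*, a gene of 1 exon on the opposite strand (94170748 to 94173412), covers 432 of the 588 exonic bases of *Mt2*, or 73.5%, with 2 of the 3 exons of the main *Mt2* transcript wholly inside it, and it also covers the whole *Mt2* promoter window. Of the 50-base words of *Mt2* transcripts, 45.8% occur in *Gm45774* on the other strand, whereas no 50-base word of *Mt1*, *Mt3* or *Mt4* occurs in a transcript of another gene. The library protocol names a dUTP version that keeps the strand and a dTTP version that does not, without saying which was made, and how fragments on both genes were assigned is not given in the sources used here, so *Mt2* and *Gm45774* cannot be told apart from these counts.

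**Figure D1:**
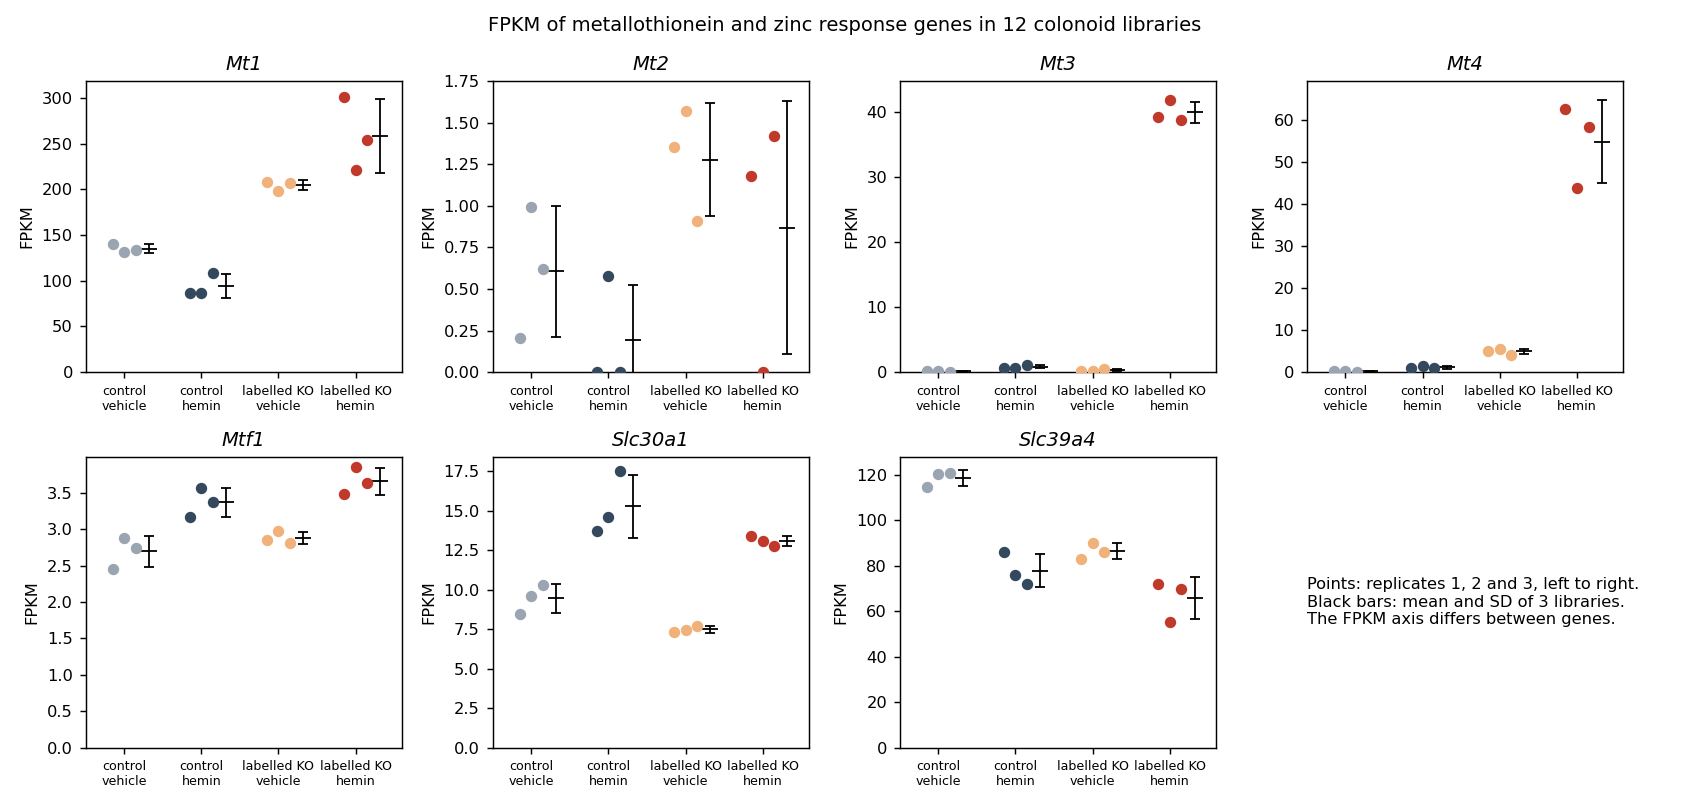
FPKM of the 7 genes (vertical axes, linear, from 0 and different for each gene) in the 4 groups (horizontal axes). Coloured points are libraries, and black bars give the mean and SD of 3 libraries, cut at 0 where the SD is larger than the mean. *Mt1* shows 4 separate levels, *Mt3* stands between 38.8 and 41.7 only in hemin-treated colonoids labelled KO, and *Slc30a1* is higher with hemin in both genotypes.

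The makeup of the family changed with these genes. The summed FPKM of *Mt1* to *Mt4* was 136 ± 4.40 (SD, n = 3) in vehicle-treated controls, 96.4 ± 12.8 in hemin-treated controls, 211 ± 5.11 in vehicle-treated colonoids labelled KO and 355 ± 49.0 in hemin-treated colonoids labelled KO. *Mt1* made up between 96.5% and 99.6% of that sum in the 9 libraries of the first 3 groups, but 74.5%, 72.1% and 72.1% in hemin-treated colonoids labelled KO. In those libraries *Mt3* held 9.68%, 13.6% and 11.0% and *Mt4* 15.5%, 14.3% and 16.5%. Elsewhere *Mt3* never exceeded 0.939% and *Mt4* never exceeded 2.69%. These shares depend on the lengths in the deposited table, which are 2.27 times the main transcript for *Mt1*, 1.15 times for *Mt2* and 1.99 times for *Mt3*, and equal to it for *Mt4*. By the length of the main transcript, the hemin-treated libraries labelled KO held 82.8%, 79.8% and 80.8% *Mt1*, 9.42%, 13.2% and 10.8% *Mt3* and 7.58%, 6.97% and 8.16% *Mt4*. The order of *Mt3* and *Mt4* in those libraries therefore turns with the length used. All these sums and shares take *Mt2* as deposited. Any *Mt2* fragments left uncounted where *Gm45774* overlaps it would raise the sums and lower the other shares.

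**Figure D2:**
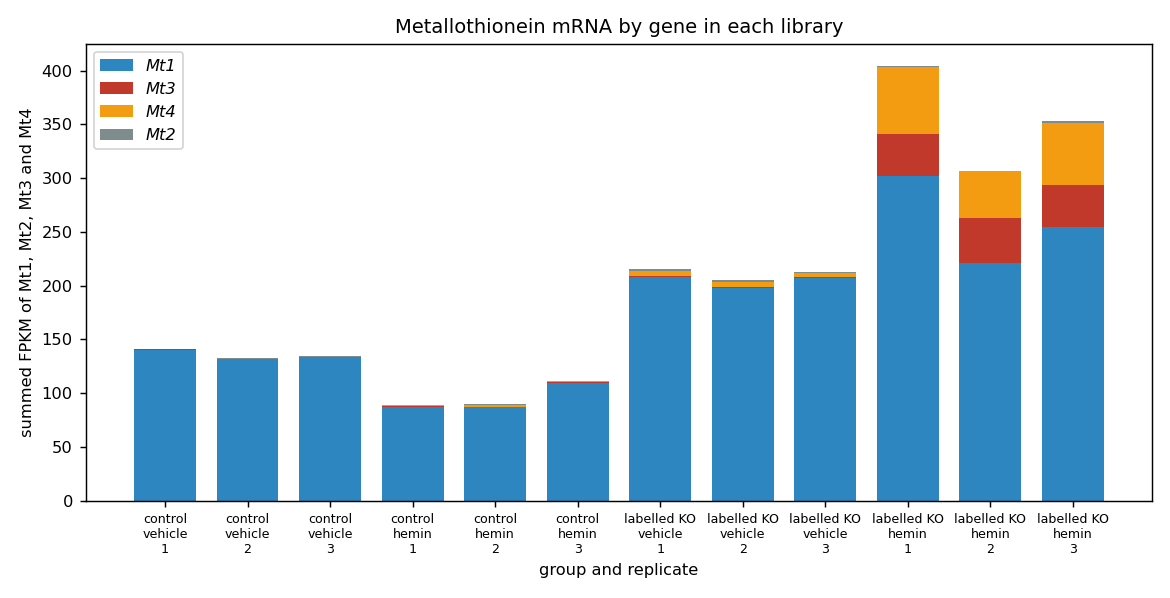
Summed FPKM of the 4 metallothionein genes (vertical axis, linear, from 0) in each of the 12 libraries (horizontal axis), divided by gene. *Mt1* fills nearly the whole bar in the control groups and in vehicle-treated colonoids labelled KO, and *Mt3* and *Mt4* appear as visible segments above it in the 3 hemin-treated libraries labelled KO. *Mt2* is drawn as deposited, with the limit of its overlap with *Gm45774*.

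The genes that sense and move zinc varied much less. *Mtf1* (chromosome 4, 124802104 to 124849800) had an FPKM of 2.69 ± 0.215 (SD, n = 3) in vehicle-treated and 3.37 ± 0.200 in hemin-treated controls, and 2.88 ± 0.0832 and 3.66 ± 0.181 in colonoids labelled KO. All hemin-treated libraries lay above all vehicle-treated ones, at 1.25 times the vehicle mean in controls and 1.27 times in colonoids labelled KO, and the genotypes overlapped under either treatment. The fitted hemin values of 0.24 and 0.26 came to 0.12 and 0.00 when rescaled to TPM. *Slc30a1* (chromosome 1, 191906767 to 191913247) was 8.44, 9.62 and 10.3 in vehicle-treated and 13.7, 14.6 and 17.5 in hemin-treated controls. In colonoids labelled KO it was 7.33, 7.45 and 7.74 with vehicle and 13.4, 13.1 and 12.8 with hemin. Hemin groups were thus above vehicle groups in both genotypes, by 1.62 and 1.74 times, while colonoids labelled KO were slightly below controls under either treatment. The fitted hemin values of 0.64 and 0.73 came to 0.48 and 0.45 with TPM. The genotype order of the zinc exporter was opposite to that of *Mt1* and *Mt4* under both treatments, and to that of *Mt3* under hemin.

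*Slc39a4* (chromosome 15, minus strand, 76612383 to 76617384), the importer, was highest in vehicle-treated controls, at 115, 120 and 121 FPKM. It was 85.8, 75.7 and 72.1 in hemin-treated controls, 83.1, 89.9 and 86.1 in vehicle-treated colonoids labelled KO and 72.1, 55.3 and 69.8 in hemin-treated colonoids labelled KO. The latter 3 groups overlapped with their neighbours in the order of means. In controls the hemin mean was 0.657 times that of vehicle, and in colonoids labelled KO 0.761 times. The fitted values, −0.60 and −0.40, were −0.80 and −0.74 with TPM. The fitted interactions of genotype and hemin were 0.02 for *Mtf1*, 0.09 for *Slc30a1* and 0.21 for *Slc39a4*, each with a standard error between 0.10 and 0.14, and those of *Mtf1* and *Slc30a1* changed sign in some alternative settings.

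**Figure D3:**
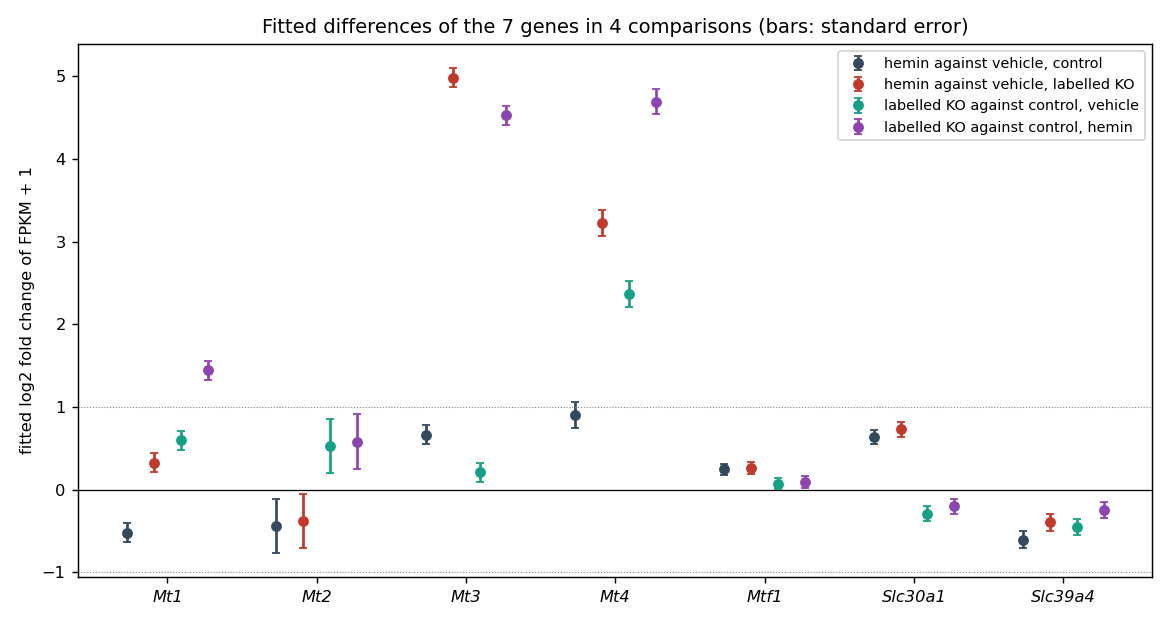
Fitted log2 fold change of FPKM + 1 (vertical axis) for the 7 genes (horizontal axis) in the 4 pairwise comparisons (colours), with standard errors as bars and dotted lines at 1 and −1. Values for *Mt3* and *Mt4* between 3.23 and 4.99 involve hemin-treated colonoids labelled KO, and the 3 zinc-handling genes stay within the dotted lines.

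A gene was called in the fit over all genes at an adjusted p under 0.05 and a log2 fold change above 1 in either direction. For the 7 genes these calls only restate what they were chosen for. With hemin in controls, the fitted values ran from −0.60 for *Slc39a4* to 0.90 for *Mt4*, all under the fold limit at a pseudocount of 1, where 2.17% of the 12740 genes were called higher and 5.93% lower. That position rests on the pseudocount for the genes with few fragments. With a pseudocount of 0.1 the values in controls were 2.02 for *Mt3*, 2.51 for *Mt4* and −1.72 for *Mt2*, and with limma-voom on recovered fragments 2.49, 2.61 and −1.89. With hemin in colonoids labelled KO, *Mt3* and *Mt4* were called higher, beside 4.87% of all genes higher and 8.07% lower. *Mt4* was called higher in colonoids labelled KO under vehicle, beside 3.53% higher and 3.27% lower. *Mt1*, *Mt3* and *Mt4* were called higher in colonoids labelled KO under hemin, beside 3.10% higher and 2.91% lower. In the interaction *Mt3* and *Mt4* were called, beside 2.57% of genes with a positive and 2.56% with a negative term.

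The flanks of the cluster gave a view of whether neighbouring genes moved as well. Within 200 kb on either side lay 16 other genes, of which 7 passed the filter. *Gm45774* passed it only through the 6 libraries labelled KO, and its values are given without a test. Its FPKM was 0, 0.0220 and 0 in vehicle-treated and 0.0329, 0.0317 and 0 in hemin-treated controls, with at most 1 fragment per library. In colonoids labelled KO it was 5.33, 4.62 and 3.79 with vehicle and 17.8, 12.7 and 17.5 with hemin, from 170 to 232 and from 669 to 795 fragments. Both control groups lay at the floor of 3 fragments or fewer, and both groups labelled KO lay far above it. Its fitted differences between the genotypes were 2.46 under vehicle and 4.04 under hemin, and that of hemin in colonoids labelled KO was 1.60. The size of the genotype values depends on the pseudocount, since controls held 1 fragment with vehicle and 2 with hemin in all, and the fragment ratio under hemin was 717 with an exact counting interval of 198 to 5924. Since *Gm45774* lies over most of *Mt2*, fragments on the shared 432 bases are uncertain as to their gene. Of the 2665 bases of *Gm45774*, 2233 lie outside *Mt2* exons, and its fragments could not be split by position.

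The 5 other flanking genes described here differed between the genotypes by −0.33 to 0.29, all under the fold limit. *Nup93*, a nuclear pore gene after *Mt1*, was lower with hemin in controls (−0.71, adjusted p = 6.96e-06) and in colonoids labelled KO (−0.60, adjusted p = 1.53e-05). *Nudt21*, a gene of mRNA 3′ end processing, was also lower with hemin in controls (−0.42, adjusted p = 0.000468) and in colonoids labelled KO (−0.74, adjusted p = 4.37e-06). *Bbs2* was higher with hemin in controls (0.59, adjusted p = 0.00651) and had a value of 0.03 in colonoids labelled KO, *Ogfod1* had values of 0.20 and 0.21 with hemin in the genotypes, and *Rpl10-ps5*, a ribosomal pseudogene whose fragments may come from related copies, was lower with hemin in colonoids labelled KO (−0.72, adjusted p = 0.00364) and had a value of −0.31 in controls.

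**Figure D4:**
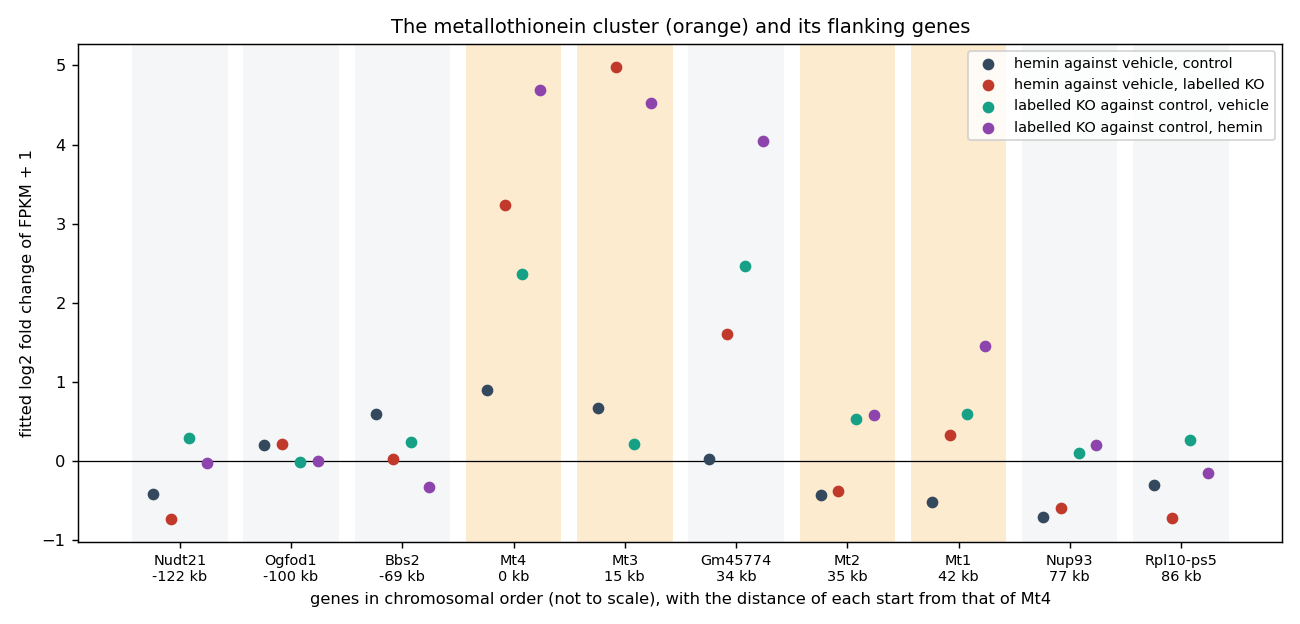
Fitted log2 fold change of FPKM + 1 (vertical axis) in the 4 pairwise comparisons (colours) for the metallothionein genes (orange) and 6 tested flanking genes (grey), in chromosomal order, with the distance of each start from that of *Mt4* in kb. Values of *Mt4*, *Mt3*, *Gm45774* and *Mt1* between genotypes under hemin lie between 1.45 and 4.70, and the other flanking genes drawn stay between −0.33 and 0.21 in that comparison.

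Other genes of zinc and copper handling were looked at in 4 lists with 42 genes in all, of which 34 passed the filter. The 8 that did not were *Slc30a2*, *Slc30a3*, *Slc30a8*, *Slc39a2*, *Slc39a12*, *Atp7b*, *Sco2* and *Pgf*. The lists were drawn up with earlier results of these data known, so their counts, shares and p-values are not an independent test. Among the 6 tested zinc exporters of the Slc30a family, no gene was called with hemin in either genotype by limma on log2(FPKM + 1), with 4 of 6 at an unadjusted p under 0.05 in each. limma-voom on recovered fragments also called no exporter with hemin in controls, and called 2 in colonoids labelled KO. *Slc30a10*, which exports manganese more than zinc, was called lower in colonoids labelled KO under vehicle (−1.31, standard error 0.14, adjusted p = 3.25e-05) and under hemin (−1.95, adjusted p = 1.58e-06). Its mean FPKM was 26.7 ± 1.69 (SD, n = 3) in vehicle-treated controls, 20.9 ± 3.86 in hemin-treated controls, 10.1 ± 0.403 in vehicle-treated colonoids labelled KO and 4.68 ± 0.977 in hemin-treated colonoids labelled KO. *Slc30a4*, a vesicular zinc transporter, had values of 0.63 with hemin in controls and 1.00 in colonoids labelled KO, the latter just under the fold limit (adjusted p = 2.47e-05).

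Among the 11 tested importers of the Slc39a family, *Slc39a5*, which takes up zinc at the basolateral side, was called lower with hemin in controls (−2.03, standard error 0.16, adjusted p = 2.5e-06) and in colonoids labelled KO (−1.90, adjusted p = 2.2e-06). Its mean FPKM went from 18.3 ± 2.34 (SD, n = 3) to 3.79 ± 1.01 in controls and from 12.2 ± 0.612 to 2.55 ± 0.538 in colonoids labelled KO. *Slc39a8*, an importer of zinc and manganese, was called lower in colonoids labelled KO under hemin (−1.01, adjusted p = 3.17e-06), at 2.08 ± 0.160 against 5.21 ± 0.552 FPKM (SD, n = 3). It lay at the fold limit and was called in 18 of 21 settings, with values of −0.99 without replicate 2 or 3 of the hemin-treated libraries labelled KO and −0.94 without replicate 3 of hemin-treated controls. No importer was called between genotypes under vehicle, with 7 of 11 at an unadjusted p under 0.05 in limma and no call by limma-voom. The other 9 tested importers stayed under the fold limit in all 5 comparisons.

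Of 11 tested copper genes, 4 were called higher and 1 lower with hemin in colonoids labelled KO, or 36.4% and 9.09%, beside 4.87% and 8.07% of all genes. The gene called lower was *Cp*, described in the next paragraph. Those called higher were *Sod1* (1.43), the copper-zinc superoxide dismutase, *Atox1* (1.41), the copper chaperone of the secretory pathway, *Heph* (1.21), a copper-dependent ferroxidase of enterocytes, and *Slc31a2* (1.00), a copper transporter of endosomes. Their adjusted p-values lay between 2.74e-07 and 4.02e-06. In controls, *Atox1* was the copper gene called with hemin (1.17, adjusted p = 2.1e-06), and *Sod1* (0.74), *Heph* (0.66) and *Slc31a2* (0.55) had smaller positive values. *Slc31a2* lay at the fold limit and was called in 17 of 22 settings, with values of 0.98, 0.99 and 0.91 without replicate 1 or 2 with hemin or replicate 3 with vehicle of colonoids labelled KO. Rescaling to TPM took *Slc31a2* to 0.76, or 0.87 with *Gm23935* left out of the scaling, *Heph* to 0.90 and *Atox1* in controls to 0.98, all under the fold limit, whereas *Sod1* and *Atox1* were called in all 22 in colonoids labelled KO. Between genotypes under hemin the largest value was that of *Atp7a*, a copper-exporting ATPase (0.96, adjusted p = 0.000238), which limma-voom called. The median over the 11 copper genes was 0.37 in colonoids labelled KO and 0.41 in controls, beside medians of 0.00 and −0.01 over all genes tested.

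*Cp*, which encodes the copper ferroxidase ceruloplasmin, behaved unlike the rest of the list. Its FPKM was 3.08, 3.28 and 2.95 in vehicle-treated colonoids labelled KO and at most 0.0697 in each of the other 9 libraries. It passed the filter only through those 3 libraries and so had to differ. Its fitted differences, 1.99 between genotypes under vehicle and −2.01 with hemin in colonoids labelled KO, are therefore a description, and the counts of called genes that include it are to be read with that limit.

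Genes reported elsewhere as MTF1 targets went both ways. Of 7 tested, 1 was called higher and 3 lower with hemin in controls, and 2 higher and 2 lower in colonoids labelled KO. In controls this was 14.3% and 42.9% of the list, beside 2.17% and 5.93% of all genes, and in colonoids labelled KO 28.6% in each direction, beside 4.87% and 8.07%. *Gclc*, the catalytic subunit of glutathione synthesis and also a target of NRF2, was called higher with hemin in controls (2.66, standard error 0.09, adjusted p = 5.17e-09) and in colonoids labelled KO (4.61, adjusted p = 5.12e-11). Its mean FPKM was 56.6 ± 1.06 (SD, n = 3) and 365 ± 56.0 in controls without and with hemin, and 30.9 ± 0.961 and 779.5 ± 14.6 in colonoids labelled KO. *Slc40a1*, the iron exporter ferroportin, was called higher with hemin in colonoids labelled KO (1.34, adjusted p = 1.1e-06) and had a value of 0.61 in controls. *Csrp1*, a LIM domain protein, was called lower with hemin in controls (−1.88, adjusted p = 7.48e-07) and in colonoids labelled KO (−2.23, adjusted p = 1.13e-07). It was also called higher in colonoids labelled KO under vehicle (2.13, adjusted p = 2.54e-07) and under hemin (1.78, adjusted p = 1.3e-06). *Selenoh*, a selenoprotein, was called lower with hemin in both genotypes (−1.28 and −1.73, adjusted p = 6.5e-06 and 3.72e-07). *Ndrg1*, a stress-responsive differentiation gene, was called lower with hemin in controls (−2.20, adjusted p = 1.25e-07) and lower in colonoids labelled KO under vehicle (−1.39, adjusted p = 3.55e-06).

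Over the 34 tested genes of all lists, 2 were called higher and 4 lower with hemin in controls, which is 5.88% and 11.8%. In colonoids labelled KO 6 were called higher and 4 lower with hemin, or 17.6% and 11.8%, and rescaling to TPM turned this split to 4 higher and 7 lower. Between genotypes 2 were called higher and 2 lower under vehicle, and 2 higher and 2 lower under hemin, each 5.88%. Interaction terms were called for 3 genes, *Gclc* (1.95) and *Ndrg1* (1.65) positive and *Cp* (−1.99) negative, the last through the 3 libraries named above. The shares over all genes for the same comparisons are given above. The median of all listed genes lay between 0.00 and 0.15 over the 5 comparisons.

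**Figure D5:**
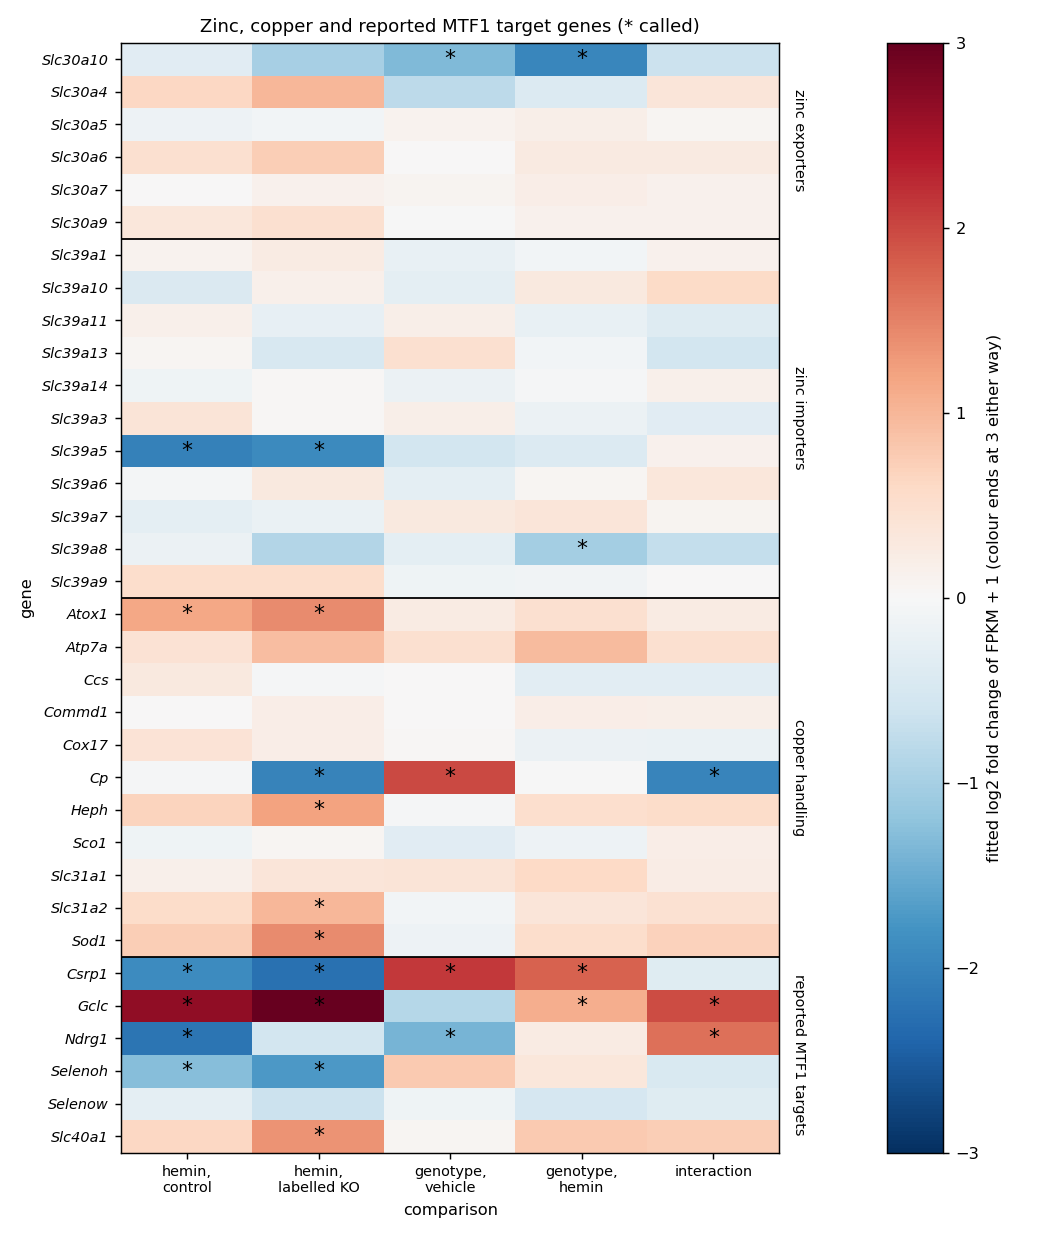
Fitted log2 fold change of FPKM + 1 (colour, blue lower and red higher, ending at 3 either way) for the 34 tested genes of the 4 lists (rows, grouped) in 5 comparisons (columns). Asterisks mark called genes, and *Slc39a10*, which is in 2 lists, is drawn once among the importers. *Gclc*, *Sod1* and *Atox1* are red with hemin, and *Slc39a5*, *Csrp1* and *Selenoh* are blue.

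The genes whose values over the 12 libraries were most like those of *Mt1* included *Abtb2*, *Itih5*, *Aqp8* and *Tnip3*, with Pearson correlations of log2(FPKM + 1) between 0.968 and 0.974. These 4 had the order of groups seen for *Mt1*. *Aqp8*, an aquaporin of colonocytes, had mean FPKM of 44.0 and 10.3 in controls without and with hemin, and 426 and 614 in colonoids labelled KO. *Itih5* had 10.4 and 5.52 in controls and 31.5 and 38.0 in colonoids labelled KO. Those most like *Mt3* were *Dusp6*, *Ptgs2*, *Aak1*, *Gsr* and *Abcc2*, with correlations between 0.988 and 0.992. *Ptgs2*, the inducible cyclooxygenase, had mean FPKM of 0.112, 0.568, 0.554 and 13.5 in control vehicle, control hemin, labelled KO vehicle and labelled KO hemin, and *Gsr*, glutathione reductase, had 77.7, 91.9, 82.7 and 154. The points of these correlations are 4 groups of 3 libraries and share each library's scaling, and for *Mt3* they rest on the 3 hemin-treated libraries labelled KO.

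*Mt3* and *Mt4* are known from other tissues, and markers of those tissues were therefore read in the same libraries. Of 4 neuron and astrocyte markers, *Gfap* and *Slc1a3* were at or under 3 fragments in every library, and the summed FPKM of the list was 0.0172 to 0.0942 in vehicle-treated and 0.0378 to 0.0934 in hemin-treated controls, and 0.248 to 0.285 and 0.199 to 0.257 in colonoids labelled KO. In both groups labelled KO most of this sum was *Snap25*, at means of 0.211 with vehicle and 0.183 with hemin, against 0.0349 and 0.0421 in controls. Of 4 keratins of stratified squamous epithelium, *Krt1* was at the floor in all groups, and the summed FPKM was 6.0 to 9.88 in vehicle-treated controls, 2.58 to 2.83 in hemin-treated controls, 1.99 to 3.20 in vehicle-treated and 1.21 to 1.92 in hemin-treated colonoids labelled KO. *Krt14* set most of its spread, at a mean of 6.47 in vehicle-treated and 0.539 in hemin-treated controls and 0.971 and 0.194 in colonoids labelled KO, and *Krt10* had group means between 1.37 and 2.18. The 6 epithelial markers summed to between 4180 and 7279 in all libraries, whereas 5 fibroblast markers summed to at most 0.0791 and 4 immune markers to at most 0.232. Several epithelial lists differed between the groups. The 3 absorptive colonocyte markers summed to 2052 to 2275 in vehicle-treated and 4020 to 6397 in hemin-treated controls, and to 1745 to 1799 and 3112 to 3876 in colonoids labelled KO. That sum was mostly *Car1*, and the other members had other patterns, with *Aqp8* lower with hemin in controls and far higher in colonoids labelled KO (means given above) and *Slc26a3* at means of 14.6 and 29.99 in controls and 37.8 and 22.4 in colonoids labelled KO. The 3 Paneth cell markers summed to 9.73 to 12.3 and 2.79 to 5.01 in controls, and to 3.10 to 3.498 and 0.605 to 1.01 in colonoids labelled KO. Of these, *Mmp7* had a mean of 10.4 in vehicle-treated controls and 0.554 in vehicle-treated colonoids labelled KO, while *Lyz1* had the opposite order, at 0.563 and 2.75. The 3 goblet cell markers summed to 280 to 362 and 163 to 176 in controls without and with hemin, and to 245 to 257 and 38.1 to 41.7 in colonoids labelled KO, and each of them had a lower mean with hemin in both genotypes. In whole colonoids, fewer cells of a type and less RNA per cell cannot be told apart, and the part of these shifts in cell markers in the metallothionein values was not tested.

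The libraries held between 11648801 and 25101868 fragments, with those of hemin-treated controls, at most 11935604, the smallest of the groups and replicate 2 of hemin-treated colonoids labelled KO the largest of all. *Gm23935*, a small structural RNA gene, took 16.8% of the FPKM sum of replicate 1 of vehicle-treated controls, 29.0% of replicate 1 of hemin-treated controls and 21.05% of replicate 2 of hemin-treated colonoids labelled KO, but no more than 2.81% elsewhere. Without that replicate 2 the fitted value of *Mt1* with hemin in colonoids labelled KO was 0.44, and without replicate 1 it was 0.21, against 0.33 with all libraries.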

How the data were processed

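RNA-seq of mouse colonoids was represented by 54532 genes in 12 libraries. The authors deposited FPKM, which relate the fragments of a gene to its length and to library size. The submitters' processing notes name fastp, HISAT2 2.0.5, featureCounts 1.5.0-p3 and mm10. Since 100% of the FPKM were whole multiples of a single fragment's value (tolerance 0.01), fragments were recovered for depth, floors (3 fragments) and exact 95% counting intervals, with ratios scaled by library. The later steps used limma 3.58.1 in R 4.3.3, and numpy 2.4.6, pandas 2.3.3, scipy 1.17.1 and matplotlib 3.10.9 in Python 3.11.15. Genes reaching an FPKM of 1 in 3 or more libraries were kept. On log2(FPKM + 1), which understates changes of low genes, limma was run with group means and an intensity trend, two-sided, and p-values were adjusted by the Benjamini-Hochberg method over all 12740 genes. Groups and replicate numbers come from the sample labels.

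The 7 genes and all lists were chosen with earlier results of these data known. Named genes were the 7, *Hmox1*, up to 4 called genes of each list per comparison with any other needed to account for the list, genes within 200 kb of the cluster that passed the filter, and the 5 genes most correlated with *Mt1* and with *Mt3*. Of these, 2 are not reported here. *Gm23935* was named after its values were seen. The fit was tested on simulated counts with changes in genes that passed the filter and the same dispersion for every gene. The outcome was not split by fragment count, so it does not show how the fit does on genes with few fragments. Alternatives were a pseudocount of 0.1, no filter, a mean FPKM of at least 5, TPM with and without *Gm23935*, a replicate block, no trend, a fit of the compared groups alone, calls by adjusted p without a fold limit, limma-voom on fragments, and leaving out each library. Gene models and exon overlaps are from GENCODE M21, promoters from RefSeq.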

Additional observations from a re-analysis of the deposited data

Results flagged for a closer look

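Among the genes of the 4 lists and the flanking genes described, 4 had interaction terms of genotype and hemin past the threshold, by limma with adjusted p-values over all genes, where 2.57% of all genes had a positive and 2.56% a negative term. *Hmox1*, read as the check of the labels, had one too (2.81, adjusted p = 1.83e-06). The 4 terms were −1.99 for *Cp*, 1.95 for *Gclc* (adjusted p = 2.3e-06), 1.65 for *Ndrg1* (adjusted p = 4.59e-05) and 1.58 for *Gm45774*. *Cp* passed the filter on low values only through the 3 vehicle-treated libraries labelled KO and *Gm45774* only through the 6 libraries labelled KO, so that their terms are a description without a test. *Gclc* was higher with hemin in 3 of 3 libraries of both genotypes, and *Ndrg1* was lower with hemin in 3 of 3 libraries of both. The term of *Gm45774* was computed against control libraries at the floor.

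*Mt1* stood out because its hemin-treated libraries lay below vehicle in 3 of 3 controls and above vehicle in 3 of 3 colonoids labelled KO. The fitted interaction was 0.85. The difference was not tested, since *Mt1* was chosen from these values.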

How the results depend on the processing

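The counts of called zinc, copper and reported MTF1 target genes stayed within 1.5 times the main value in 104 of 109 alternatives. The exceptions came from dropping the fold limit and using the adjusted p alone, which by construction admits more genes: 17 in place of 6 for hemin in controls, 24 in place of 10 for hemin in colonoids labelled KO, 16 in place of 4 between genotypes under vehicle, 15 in place of 4 under hemin and 12 in place of 3 in the interaction. With the replicate block the counts were 6, 10, 4, 4 and 3 in that order, the same as without it. The replicate numbers did not pair the libraries, since deviations of libraries with the same number correlated at a mean of −0.04 (range −0.33 to 0.18, 18 pairs), against 0.02 for other numbers (36 pairs).

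Fitted values of *Mt3* and *Mt4* depended on the pseudocount, because the libraries they are compared with held few fragments. The log2 value of *Mt3* with hemin in colonoids labelled KO ranged from 4.91 to 7.08 over 21 settings and that of *Mt4* between genotypes under vehicle from 2.27 to 4.62. *Mt2* values ranged from −2.04 to 0.02 with hemin in colonoids labelled KO and are below what this depth resolves. TPM scaling moved the median of all genes to −0.19 for hemin in controls, −0.31 for hemin in colonoids labelled KO, 0.16 between genotypes under vehicle and −0.11 in the interaction. With TPM, the share of called genes that were higher with hemin went from 26.8% to 15.5% in controls and from 37.6% to 14.7% in colonoids labelled KO.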
